A study of Homo sapiens with 2 samples.

Results

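Interferon-stimulated genes were compared between MM.1S cells cultured with plasmacytoid dendritic cells (pDCs) and MM.1S cells cultured alone. MM.1S is a human multiple myeloma line that grows as plasma-cell-like tumour cells, and pDCs are the dendritic cells known for making type I interferon. The list held 46 genes, given by symbol and divided into 8 classes: IFIT, OAS, MX, IFI, GBP, SAMD9, STAT/IRF and a mixed class of other members. A gene entered through probe sets of the Affymetrix HG-U133 Plus 2.0 array that carry its symbol alone. This gave 45 genes with 75 probe sets, out of 19775 genes and 54675 probe sets on the array. STAT2 had no such probe set and was not analysed here. Each culture gave 1 array of total RNA, so no value has a replicate error (n = 1 per group), no test was possible, and "higher" and "lower" describe these arrays. No source used here gives the pDC donors, the culture time, the ratio of cells, or whether pDCs were separated from MM.1S cells before RNA extraction.

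Type I interferon binds the receptor IFNAR1/IFNAR2, and the kinases JAK1 and TYK2 then activate a transcription factor complex that holds STAT2 and IRF9. That complex binds the interferon-stimulated response element in promoters and switches on a large antiviral programme. Type II interferon acts through gamma-activated sequences and drives the guanylate-binding proteins (GBPs) strongly. Plasma cells and myeloma cells carry interferon receptors, and interferon was once given to patients with myeloma as a treatment.

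The response element was looked up in the promoter windows of the members, because it is what these genes are known to share. Each window covers 250 bases before to 50 bases after a gene start (RefSeq, GRCh38.p14). The response element was searched by its core, GAAA followed by any 2 bases and GAAA again, and the gamma-activated sequence as TTCNNNGAA, both on either strand. Windows were at hand for 36 of the 46 members. At least 1 match to the response element core was present in 26 of them (72.2%), against 1195 of 27305 genes in the whole table (4.38%). TTCNNNGAA was matched in 11 of the 36 members (30.6%), against 9.38% of all genes, and the 2 motifs overlapped in 5 members. A total of 14 members held several core matches in a single window. The promoter stretches printed here show that members on both sides carry the core, each with 20 bases on either side of the matches. Capitals mark core matches or, where the match lies on the other strand, matches to the reverse complement of the core. On their brightest probe sets, the first 5 genes were higher with pDCs and the last 2 were lower. The other probe set of IFIT3 went the other way. The stretches are IFIT1 (chr10:89392487-89392549, plus strand), IFIT3 (chr10:89327821-89327904, plus strand), IFI6 (chr1:27672256-27672368, minus strand), SAMD9 (chr7:93118086-93118135, minus strand), MX1 (chr21:41420549-41420598, plus strand), ISG15 (chr1:1013364-1013419, plus strand) and ISG20 (chr15:88638927-88638976, plus strand).
IFIT1: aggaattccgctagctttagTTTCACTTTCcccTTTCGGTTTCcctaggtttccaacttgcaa
IFIT3: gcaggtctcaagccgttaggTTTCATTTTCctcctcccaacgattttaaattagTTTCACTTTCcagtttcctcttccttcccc
IFI6: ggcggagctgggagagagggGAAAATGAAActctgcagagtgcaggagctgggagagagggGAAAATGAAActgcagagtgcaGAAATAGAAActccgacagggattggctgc
SAMD9: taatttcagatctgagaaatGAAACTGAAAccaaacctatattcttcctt
MX1: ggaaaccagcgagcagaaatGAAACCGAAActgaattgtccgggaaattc
ISG15: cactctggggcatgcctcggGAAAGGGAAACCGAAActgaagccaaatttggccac
ISG20: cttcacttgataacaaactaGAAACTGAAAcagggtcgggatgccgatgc
In IFIT1 the matches began 116 and 103 bases before the gene start, and in IFI6 they began 156, 115 and 93 bases before it. ISG15 and ISG20, which were lower with pDCs, also carried the core: ISG15 held 2 overlapping matches, at 113 and 107 bases, and ISG20 held 1 at 69 bases. Among measured members with a window, the 22 with a match had a median log2 ratio of 0.33, with 14 positive and 8 negative. The 8 without a match had a median of 0.15, with 5 positive and 3 negative. A match is a description of letters and not evidence of a working site.

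The deposited values are MAS5 signals on a linear scale. A floor was set at the median signal of each array (115.9 with pDCs and 124.0 alone), and lower signals were raised to it. The log2 ratio is the value with pDCs minus the value alone. Each gene is given by its brightest probe set, and for members the other probe sets above the floor follow. Where a single array lay below its floor, the ratio is a limit and is given with "at least". The plasma cell identity of both samples was visible in SDC1 (10177 with pDCs and 10503 alone) and IRF4 (11634 and 11111). Of 12 pDC markers with a probe set, 3 were below the floor on both arrays, CLEC4C and IL3RA among them. Above it on both arrays were 6, as described at the end of these results. The ratio of 3' to 5' signal of ACTB was 8.09 with pDCs and 19.5 alone, and that of GAPDH was 2.46 and 3.07. The part of these 3' to 5' ratios in the results below was not tested.

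Of the 45 genes, 38 were above the floor on at least 1 array, 29 of them on both. The remaining 7 genes (IFI27, IFI44L, GBP5, CMPK2, DDX60, IFITM3 and TRIM22) were below it on both arrays and have no ratio. Among the 38, 23 were positive and 15 negative (60.5% positive, against 46.7% of the 14407 genes measured in the same way). Their median log2 ratio was 0.28, against -0.04 over all measured genes. At 2-fold, 3 members were higher (IFIT1, IFI6 and SAMD9) and 1 was lower (GBP2), while 3.17% of all measured genes were at least 2-fold higher and 4.51% at least 2-fold lower. At 1.5-fold, 12 members were higher (31.6%, against 11.5% of all measured genes) and 3 were lower (7.89%, against 15.3%). Of the 12, 5 (IFIT3, OASL, IFI6, USP18 and LGALS3BP) were above the floor with pDCs only. They were thus measured only through the array where they were high. Among the 3 lower, GBP2 was above the floor alone only. The remaining 23 lay within 1.5-fold. The floor at the 70th percentile, which leaves 25 members measured, lowered the count at 1.5-fold to 4 higher, against 9.07% of all genes at that floor. Averaging the probe sets of each gene moved the median of the members to 0.029, with 19 positive and 19 negative, so the higher median holds for the brightest probe sets. By class, and on the brightest probe sets, antiviral effectors of the IFIT, OAS, MX and SAMD9 families lay mostly on the higher side. The 2 measured STAT/IRF members lay on the lower side. The mixed class was split, with 8 positive and 9 negative and a median of -0.03, near that of all measured genes.

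**Figure D1:**
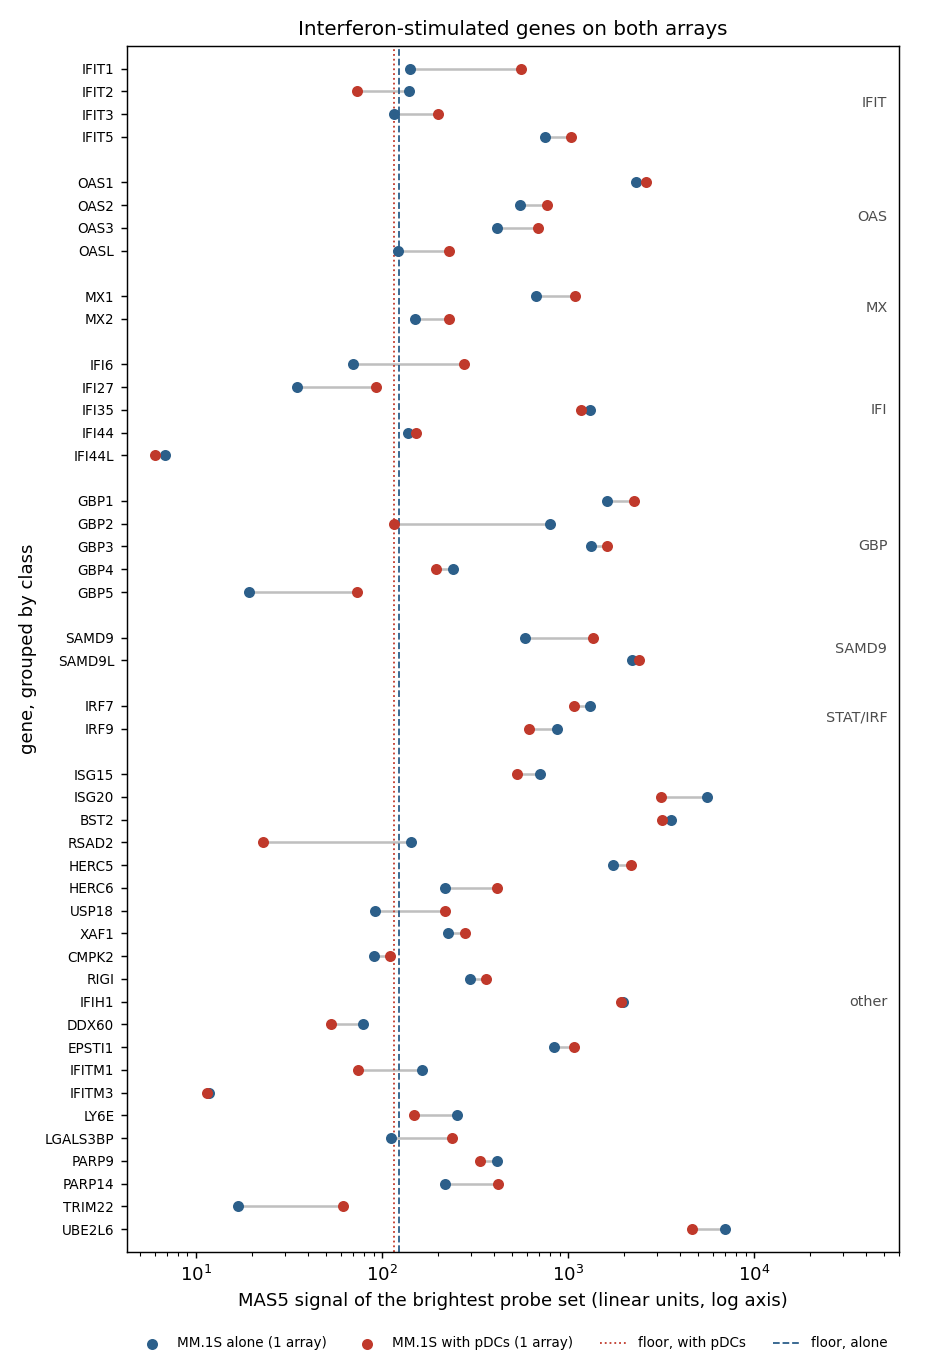
MAS5 signal (linear units on a log axis) of the brightest probe set of each of the 45 genes, with MM.1S alone in blue, MM.1S with pDCs in red and the floors of the arrays as vertical lines (115.9 with pDCs, 124.0 alone). IFIT1, IFI6 and SAMD9 have the red point far to the right of the blue, GBP2 the reverse, and 7 genes lie left of both floors.

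The IFIT genes encode tetratricopeptide proteins that bind viral RNA and hinder its translation. IFIT1, which recognises RNA lacking the host's cap methylation, had a signal of 560 with pDCs and 141 alone. That is 3.96-fold higher (log2 ratio 1.99), the largest positive ratio of the set and rank 15 from the top among 14407 genes. It rests on a single probe set, and with the floor at the 70th percentile it shrank to 0.96. IFIT3, the partner that stabilises IFIT1 on RNA, had 200.1 against 115.6 and was at least 1.61-fold higher. Its other probe set went the other way, with 68.1 against 139, or at least 0.26 lower on the log2 scale, so the direction of IFIT3 depends on the probe set. IFIT5, which binds RNA with a 5' triphosphate, had 1039 against 756, a log2 ratio of 0.46, with 0.14 on its other probe set. IFIT2 had 73.1 against 139, below the floor with pDCs and at least 1.20-fold lower. The class median was 0.57, with 3 of 4 members positive, and it was 0.26 with the mean over all probe sets.

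The OAS enzymes sense double-stranded RNA and make 2'-5' oligoadenylates, the messenger that turns on RNase L. All 4 members were positive, with a median log2 ratio of 0.62, although none reached 2-fold. OASL, a relative that lacks this enzyme activity and promotes RIG-I signalling, had 230.3 against 121.9 and was at least 1.86-fold higher. OAS3 had 693 against 413, which is 1.68-fold higher. OAS2 had 772 against 549 (log2 ratio 0.49), and its other probe sets gave 0.28 and 0.0016, the last at 129.2 against 129.1. OAS1 had 2618 against 2315, a log2 ratio of 0.18, while its other probe set had 876 against 1132, a ratio of -0.37. The OAS family was thus higher on each gene's brightest probe set, with OAS1 divided between its probe sets.

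MX1 and MX2 are dynamin-like GTPases, MX1 active against influenza and related viruses and MX2 against HIV. MX1 had 1094 against 676, a log2 ratio of 0.69, and MX2 had 230.3 against 150.4, a ratio of 0.62. Each has a single measured probe set, and the values lay close together. SAMD9 and SAMD9L are neighbouring genes on chromosome 7 that restrict poxviruses and slow cell growth when overactive. SAMD9 had 1358 against 586, 2.32-fold higher, and 387 against 257 on its other probe set (log2 ratio 0.59). It was the only member past 2-fold with a further measured probe set in the same direction, and the mean of both was 0.90. SAMD9L gave 2409 against 2198, a ratio of 0.13. Its other probe sets, at 1080 against 1490 and 35.7 against 197.3, had -0.46 and -0.77 or lower. The paralogues thus differed in these arrays: both SAMD9 probe sets were higher, and of the 3 for SAMD9L 2 were lower.

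The IFI class is a group by name rather than by function. IFI6, a membrane protein of the endoplasmic reticulum and mitochondria that counters flaviviruses and cell death, had 276 with pDCs and 70.1 alone, below the floor, and was at least 2.23-fold higher. IFI44 had 153 against 138.5 (log2 ratio 0.14), close to the floor on both arrays. IFI35, a leucine zipper protein that binds NMI, had 1180.4 against 1304, a ratio of -0.14. IFI27 had 92.9 against 34.7 and IFI44L had 6.06 against 6.82, both below the floor, so 2 of the genes most used as blood markers of an interferon response gave no ratio in these cells. The class median of 0.14 rested on 3 genes and changed sign, to -0.14, with the higher floor.

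**Figure D2:**
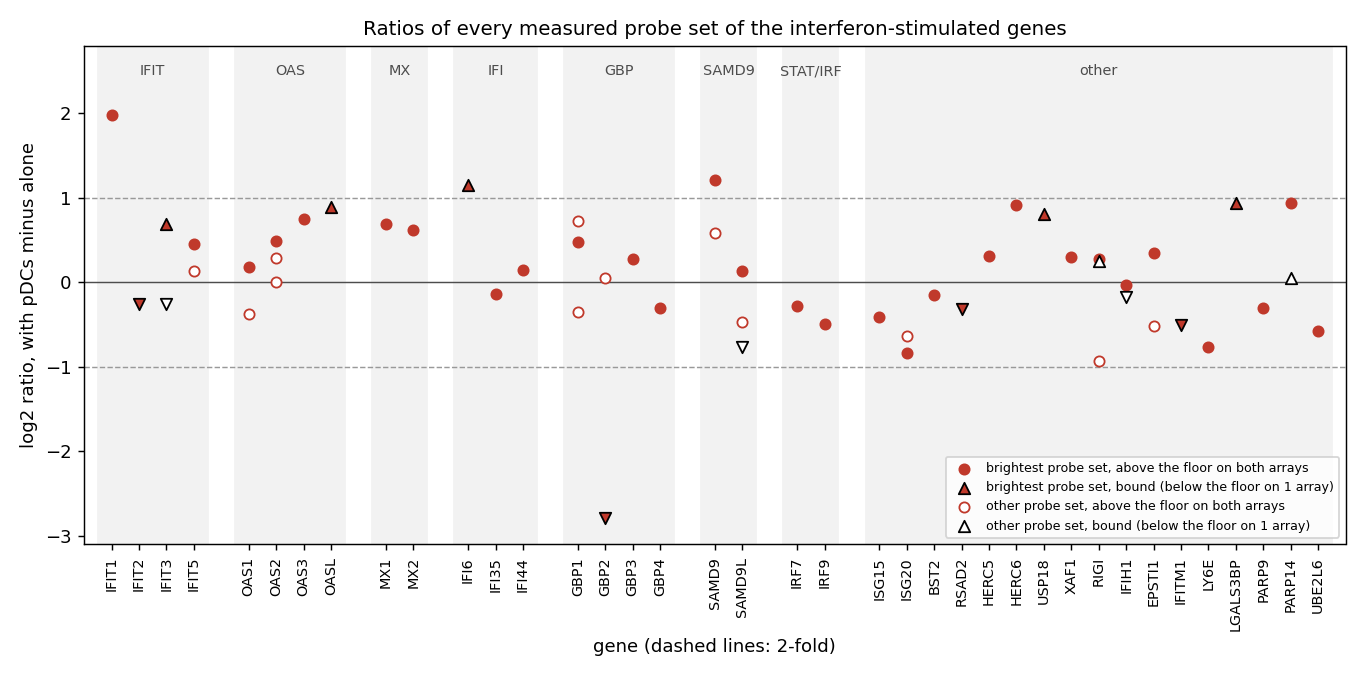
Log2 ratio (with pDCs minus alone) of each measured probe set of the 38 measured members, by class; filled symbols are the brightest probe set of a gene, open symbols the others, and triangles are bounds. GBP2 has the widest gap between its probe sets (-2.79 or lower and 0.06), and for OAS1, SAMD9L, RIGI and EPSTI1 a lower open point lies under a filled point above 0.

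GBPs are large GTPases that coat intracellular bacteria and vacuoles and are a hallmark of type II interferon. Of the 4 measured members, 2 were positive and 2 negative, with a median log2 ratio of -0.01. GBP1 had 2266 against 1624 (log2 ratio 0.48) and 1508 against 911 on another probe set (0.73), but 807 against 1032 on another, of the x_at type, which can bind several transcripts (-0.35). GBP3 had 1613 against 1328, a ratio of 0.28. GBP4 lay on the other side with 194.8 against 241.0, a ratio of -0.31. GBP2 was the extreme of the whole set. Its brightest probe set lay just under the floor with pDCs (115.3) against 803 alone, at least 6.93-fold lower and rank 6 from the bottom among 14407 genes. Its other probe set had 264 against 254, a ratio of 0.06, so the difference rests on 1 of 2 probe sets. GBP5 was below the floor on both arrays (73.7 and 19.2).

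GBP1 and GBP3 lie in a cluster on chromosome 1, and a promoter stretch of each is printed here (chr1:89065306-89065355, minus strand, and chr1:89022835-89022884, minus strand). Each stretch is cut around its own match to the reverse complement of the response element core, which is in capitals.
GBP1: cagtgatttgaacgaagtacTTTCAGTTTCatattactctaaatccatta
GBP3: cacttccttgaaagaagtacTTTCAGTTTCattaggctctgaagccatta
The 2 stretches shared 39 of 50 bases at the same offset. The fixed bases of the core agree because each stretch was cut around it. The match began 127 bases before the gene start in GBP1 and at base 3 after it in GBP3. No other pair was compared, and whether the probe sets of GBP1 and GBP3 share signal was not tested.

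The transcription factors that carry the interferon signal were not higher. IRF9, the DNA-binding partner of STAT2, had 615 against 867, a log2 ratio of -0.50. IRF7, the factor that pDCs hold at high level and that amplifies interferon production, had 1073 against 1303, a ratio of -0.28. Both have a single probe set and both kept their negative sign under each alternative that gave a value.

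In the mixed class of 17 measured members, 8 were positive and 9 negative, with a median of -0.03, and members of single pathways lay on both sides. ISG15 is a ubiquitin-like protein that is attached to other proteins by UBE2L6 and HERC5 and removed by USP18. ISG15 itself had 531 against 704 (log2 ratio -0.41), and the conjugating enzyme UBE2L6 had 4639 against 6941 (-0.58). The ligase HERC5 had 2178 against 1748, a ratio of 0.32, and its paralogue HERC6 had 413 against 218, 1.89-fold higher. USP18, which also blocks signalling at IFNAR2, had 217.9 against 91.6 and was at least 1.76-fold higher. Of these 5 genes, HERC6 and USP18 were past 1.5-fold and the others lay within it.

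PARP9 and PARP14, ADP-ribosyltransferases encoded close together on chromosome 3, also lay apart. PARP14 had 420.2 against 218.4, 1.92-fold higher, and on its other probe set 128.4 against 24.0, a ratio of at least 0.05. PARP9 had 336 against 415, a ratio of -0.30. LGALS3BP, a secreted glycoprotein that binds galectins, had 238.3 against 111.6 and was at least 1.92-fold higher, and it passed 2-fold with quantile normalization (log2 ratio 1.01) and with loess (1.03). XAF1, which antagonises the apoptosis inhibitor XIAP, had 278 against 226 (0.30).

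Among the RNA sensors, the direction of RIGI depended on the probe set. RIGI, which detects RNA with a 5' triphosphate, had 362 against 298 (log2 ratio 0.28) on its brightest probe set, of the x_at type. Without x_at and s_at probe sets the ratio of RIGI was -0.93. The other RIGI probe sets gave 146 against 278 (-0.93) and 148 against 30.01 (at least 0.25). IFIH1, the sensor of long double-stranded RNA also called MDA5, had 1922 against 1968, a ratio of -0.03, and its dimmer probe set had 69.9 against 130.9, at least 0.17 lower on the log2 scale. EPSTI1 had 1076 against 843 (0.35) on one probe set and 425 against 609 (-0.52) on the other. RIGI and EPSTI1 thus have no direction common to their probe sets.

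ISG20, an exonuclease that degrades single-stranded RNA and is abundant in plasma cells, had 3150.0 against 5612, a ratio of -0.83 (1.78-fold lower). Its other probe set, at 2618 against 4080, gave -0.64, so both lay on the same side. LY6E, a lipid-anchored surface protein that blocks coronavirus entry, had 149 against 252, 1.69-fold lower. IFITM1, which hinders fusion of viruses with the plasma membrane, had 74.5 against 164.7 and was at least 1.42-fold lower. RSAD2 (viperin), which makes a chain-terminating nucleotide, had 22.8 against 143.7 and was at least 1.24-fold lower, a bound set by the floor. Below the floor on both arrays lay CMPK2, a mitochondrial nucleotide kinase (109.97 with pDCs and 90.5 alone), the helicase DDX60 (52.9 and 78.8), IFITM3 (11.5 and 11.7) and TRIM22, a ubiquitin ligase that restricts HIV (61.99 and 16.7). BST2 (tetherin), which holds budding viruses at the surface and is also carried by plasma cells and pDCs, had 3192 against 3554, a ratio of -0.15.

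Agreement between probe sets was limited in members and in genes at large. In 7 of the 13 members with several measured probe sets (IFIT3, OAS1, GBP1, GBP2, SAMD9L, RIGI and EPSTI1) they pointed in opposite directions and lay at least 0.5 apart on the log2 scale. All were positive in 4 members (IFIT5, OAS2, SAMD9 and PARP14) and all were negative in 2 (ISG20 and IFIH1). The share of all genes that meet this rule was not computed. Where both of a gene's brightest 2 probe sets exceeded the floors, they differed by a median of 0.55 in 9 members and 0.38 in 4844 genes. They had opposite signs in 4 of these 9 members (44.4%) and in 39.4% of the 4844 genes, so opposite signs were common in genes at large. The 17 measured probe sets of members other than the brightest had a median of -0.17, with 8 positive and none past 2-fold, against 4.19% of all 25794 measured probe sets at least 2-fold higher and 4.67% at least 2-fold lower. Averaging across probe sets gave 10 members at least 1.5-fold higher and 3 lower, against 9.82% and 12.8% of all genes.

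**Figure D3:**
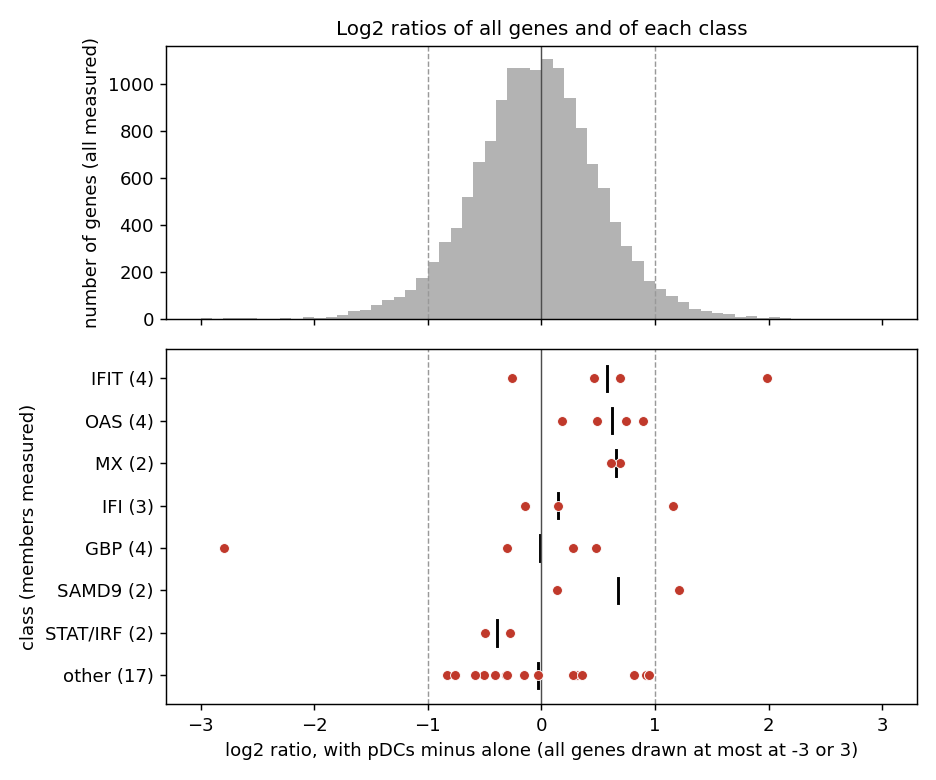
Top, histogram of the log2 ratio (with pDCs minus alone) of all 14407 measured genes; bottom, measured members by class, each point a gene and each black bar the class median, with dashed lines at 2-fold. The medians of the IFIT, OAS, MX and SAMD9 classes lie between 0.57 and 0.67, that of the STAT/IRF class at -0.39, and those of the GBP and other classes close to 0.

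Genes upstream of the members were set beside them. Of 21 interferon genes, 18 had a probe set and 13 of these were below the floor on both arrays, among them IFNB1 (13.3 with pDCs and 8.41 alone) and IFNG (60.3 and 38.1). Of the 5 measured, 2 were positive and 3 negative. Averaged over both arrays, the highest signals were those of IFNA17 (455 against 601, log2 ratio -0.40) and IFNL1 (149 against 199, -0.42). IFNA7 had -0.15. IFNA5 (151 against 21.2, at least 0.29) and IFNA14 (136 against 30.3, at least 0.14) were above the floor with pDCs only. The IFNA17, IFNA7 and IFNA14 probe sets are of the x_at type, which can bind related IFNA transcripts. None of the 5 was 2-fold higher or lower by the floored ratio. The chains of the type I receptor differed in direction. IFNAR1 had 1036 against 862 (0.27), with 0.997 and -0.09 on its other measured probe sets, and IFNAR2 had 8516 against 12436 (-0.55), with -0.88 and -1.52 on the others. The lambda receptor chain IFNLR1, at 1490.3 against 699, was 2.13-fold higher and the only receptor of 6 past 2-fold, with 5 positive and 1 negative. Its other probe set gave at least 0.68, and the mean of both, 0.89, was under 2-fold.

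Of the kinases, JAK1 had 5252 against 5372 (log2 ratio -0.03, while dimmer probe sets gave 1.11 and -0.25 or lower and the mean over probe sets 0.27) and TYK2 had 1309 against 1515 (-0.21). STAT3 was the only one of 3 measured kinases and STATs past 2-fold, with 1180 against 3256 (-1.46), and its other measured probe sets ran from -1.12 to 0.26 (mean over all of them -0.64, within 2-fold). The other interferon regulatory factors were within 1.5-fold: IRF1, a mediator of the type II response, had 1498 against 1622 (-0.11, and -0.24 on its other probe set), IRF3 had 1701 against 2403 (-0.50) and IRF5 had 2164 against 2030 (0.09, and 0.49 on its other probe set). Among 11 measured sensors and adaptors, 8 were positive, the kinase IKBKE was 2.10-fold higher (-0.01 on its other probe set, and 0.53 for the mean) and TLR9 was at least 2.24-fold lower. The 7 negative regulators had a median of -0.01, with PTPN6 at -0.08 and PTPN2 at -0.10, and none past 2-fold.

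A further list of 40 interferon-stimulated genes outside the members had 34 measured genes. Of these 15 were positive (44.1%, against 46.7% of all measured genes) and 19 negative. Their median log2 ratio was -0.13, against 0.28 in the members and -0.04 over all genes. At 2-fold, 2 were higher and none was lower, against 3.17% and 4.51% of all measured genes. TNFSF10, the death ligand TRAIL, was 2.60-fold higher (800.2 against 308), with 0.89 and 0.61 on its other probe sets and a mean of 0.96, under 2-fold. NMI, a partner of STAT proteins, was 2.13-fold higher (1282 against 602). Members and further genes therefore gave medians on opposite sides of 0, and no test of that difference was possible.

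**Figure D4:**
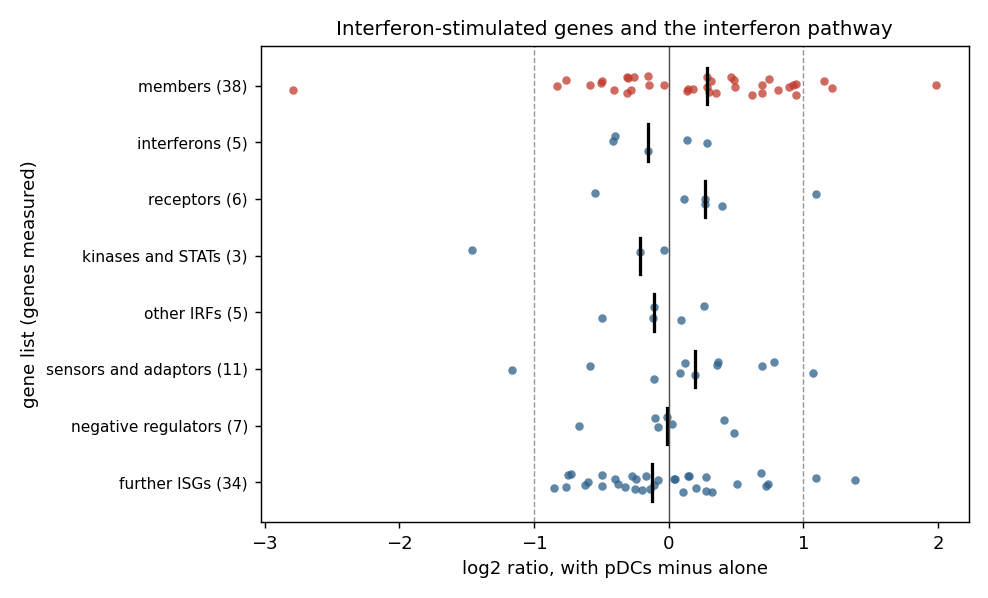
Log2 ratio (with pDCs minus alone) of the 38 measured members (red) and of the measured genes of 7 other lists of the interferon pathway (blue), with the median of each list as a black bar and dashed lines at 2-fold. The medians run from -0.21 for kinases and STATs to 0.28 for the members.

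Markers of other cells were read on the same arrays. Of 12 pDC markers with a probe set, 9 were measured, 2 of them positive and 7 negative. At 2-fold, 3 were lower (GZMB, PACSIN1 and TLR9) and none was higher, against 4.51% and 3.17% of all measured genes. The 2 positive markers were LILRA4 and TLR7. TLR7 was above the floor with pDCs only (212.6 against 96.2, at least 1.71-fold higher). GZMB had 174 against 604, and PACSIN1 had 400 against 928. The summed signal over all 12 was 5911 with pDCs and 7985 alone, of which TCF4 gave 3569 and 4400. CLEC4C had 61.4 and 6.43, and IL3RA 29.0 and 21.1. LILRA4 had 306 against 256 (log2 ratio 0.26), and NRP1, below the floor with pDCs, 35.0 against 146. Of 7 measured monocyte markers, LYZ, CD14, S100A8, S100A9 and VCAN were lower with pDCs, and the summed signals over 9 markers were 591 and 1636. LYZ had 16.99 with pDCs and 711 alone, and CD14 had 26.9 and 139. FCN1 (122.6 and 62.6) and CSF1R (120.9 and 123.1) were above the floor with pDCs only, and lay close to it. Their floored ratios (-0.02 and -0.04) have the sign opposite to the array that passed, so they give no direction. Before flooring, the FCN1 signal was higher with pDCs. S100A8 (116.4 and 182.4) was also close to the floor with pDCs. Of 7 T cell markers, 3 were measured and 1 was positive, and CD3D was below the floor on both arrays. The NK cell list had 2 of 4 measured markers positive and the B cell list 2 of 4. The 9 plasma cell markers had summed signals of 186158 and 184418, with 4 positive and 5 negative and a median ratio of -0.05. Among them CD38 had -0.67, XBP1 -0.48, TNFRSF17 0.46 and JCHAIN 0.83. In bulk RNA, fewer cells of a type and less RNA per cell cannot be told apart, and the part of these markers in the ratios of the members was not tested. ACTB had a ratio of 0.37 and GAPDH one of 0.00075.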

How the data were processed

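Total RNA from MM.1S cells with pDCs and from MM.1S cells alone was hybridised to 1 Affymetrix HG-U133 Plus 2.0 array per group, per the labels. The deposited table holds 1 linear intensity per probe set and array. The submitters' processing notes name MAS5; its version, its background step and any detection calls were not given in the sources used here. Both arrays share a scale (mean of 499.9 after trimming 2% at each end), which would hide a shift shared by most genes. Of 54675 probe sets, 41091 carried 1 gene symbol, 41037 of them matched to RefSeq (GRCh38.p14) by gene identifier, and 1801 carried several and were not used. Floor, ratio and choice of probe set are given above. In 153 genes, none of them a member, a signal on one array between the floors gave the floored ratio the sign opposite to the array that passed. The number of arrays limits the precision.

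Every member is reported. Other genes were named by a rule. Of each pathway list, up to 4 past 2-fold were named or, where none was, the 2 with the highest signal. Some receptors, kinases and markers are always given. Further interferons and cell type markers were named outside the rule to show both directions. Members and lists were chosen with earlier results of these data known. Alternatives were median centring, quantile normalization, loess (span 0.3), a lower floor (30th percentile), a higher floor (70th) or no floor, averaging a gene's probe sets, leaving out x_at and s_at probe sets, and thresholds of 1.5-fold and 3-fold. A comparison of family protein sequences was planned and not run. Python 3.11.15 with numpy 2.4.6, pandas 2.3.3, statsmodels 0.14.6 and matplotlib 3.10.9 was used, and the calculations were tested on simulated data.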

Additional observations from a re-analysis of the deposited data

How the results depend on the processing

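Of 38 measured members, all kept their sign under median centring, quantile normalization and loess, and 34 kept it under every alternative that gave a value; OAS1, SAMD9L, RIGI and EPSTI1 did not. The floor decided how many dim genes passed a size. With the floor at the 30th percentile, 6 members were at least 2-fold higher and 3 lower (8.57% and 10.9% of all genes), 6 were at least 1.5-fold lower (21.2%), and medians were 0.59 for the IFI, 0.28 for the GBP and 0.12 for the other class. Without a floor, 8 were 2-fold higher and 3 lower (12.0% and 14.0% of all genes), 6 at least 1.5-fold lower (23.5%), and the GBP median was 0.28. At the 70th percentile 1 member was 2-fold higher (1.90% of all genes), 4 were 1.5-fold higher (9.07%) and 15 were positive, with fewer genes measured; medians were 0.71 for IFIT, 0.49 for OAS, -0.14 for IFI, 0.28 for GBP and -0.40 for interferons. The threshold of 1.5-fold gave 12 higher and 3 lower (11.5% and 15.3% of all genes). At 3-fold, 1 member was higher and 1 lower, and the share of all genes at 3-fold was not computed. The mean over probe sets gave medians of 0.029 over all members, 0.26 for IFIT, 0.50 for OAS, 0.27 for SAMD9 and 0.39 for receptors. Without x_at and s_at probe sets medians were 0.69 for IFIT, 0.49 for OAS, 1.16 for IFI, -0.50 for STAT/IRF, -0.75 for kinases and STATs and 0.087 for sensors and adaptors, with fewer genes measured. Apart from the floor and the number of genes measured, the cause was not tested. The counts at 1.5-fold under each alternative were added after seeing the data. No paired analysis was possible because each group has 1 array.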
